A study of Arabidopsis thaliana with 36 samples.

Results

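Shoots of tpst plants that had grown in PSK for 11 days were compared with shoots of tpst plants given PSK for 5 h. The comparison takes 6 of the 36 RNA-seq libraries of the series, 3 independent biological replicates per group, picked out by their labels and not by measured values. All plants carried the T-DNA allele tpst-1 in the Col-0 background, which leaves them without the tyrosylprotein sulfotransferase that sulfates PSK and other peptides, and were 11 days old when shoots and roots were separated and profiled apart, each replicate being a pool of seedlings. In the 11 day group, seeds germinated in liquid medium with 10 nM PSK and the seedlings stayed in it. In the 5 h group, fresh medium with 10 nM PSK took the place of the old medium 5 h before harvest, so the length of exposure and the replacement of the medium cannot be told apart in this contrast. The remaining groups of shoots, used here for their levels and in the fit, were WT (Col-0) and untreated tpst, which got neither PSK nor new medium, and tpst given 10 nM PSK for 30 min or 2 h in fresh medium, and the same 6 groups were profiled in roots, where the contrast was repeated. The hour of harvest of each group was not given in the sources used here.

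PSK is a small secreted peptide that is cut from precursor proteins, carries sulfated tyrosines and is perceived at the plasma membrane by the receptor kinases PSKR1 and PSKR2. Many of the genes described below belong to metal homeostasis, which is run by a few well-known circuits. When iron is short, Arabidopsis makes the subgroup Ib bHLH transcription factors (BHLH38, BHLH39, BHLH100 and BHLH101), which drive iron acquisition, and keeps ferritin, the plastid protein that stores iron, low. When copper is short, the regulator SPL7 binds GTAC motifs and turns on copper uptake genes and the microRNAs miR398, miR408 and miR857, which direct the removal of mRNAs for dispensable copper proteins such as the Cu/Zn superoxide dismutases CSD1 and CSD2.

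The 6 libraries held 22278476 to 28630410 counts and none duplicated another. The first principal component of the 18 shoot libraries carried 44.8% of the variance. It placed the 11 day libraries at 65.8, 54.6 and 40.9 and the 5 h libraries at 64.7 to 67.3. On this component replicate 3 of 11 days lay farthest from the 5 h group and replicate 1 of 11 days within its range. The second component (14.9%) kept the groups apart, with 21.8, 29.0 and 27.8 at 11 days and -3.94, 9.91 and 7.89 at 5 h. TPST, the gene disrupted in the mutant, gave 6.68, 6.5 and 7.22 CPM (counts scaled to library size) at 11 days and 7.01, 5.56 and 5.98 CPM at 5 h, against 15.9 ± 1.46 CPM in WT shoots (SD, n = 3). Shoot tissue was checked with 39 listed nuclear genes of photosynthesis, 38 of them tested. Their summed level was 63700, 71000 and 61300 CPM at 11 days and 52900, 46600 and 47800 CPM at 5 h. The 15 listed markers of root tissue summed to 17.8, 16.7 and 18.3 CPM at 11 days and 25.6, 23.8 and 22.6 CPM at 5 h. Of these markers 10 were tested, and PLT1 and MRN1 were among those too low to be tested. Both marker sums therefore differed between the groups, and their part in the results below was not tested. In roots, used only at the end, replicate 3 of 11 days and replicate 3 of 5 h lay opposite to their mates: FER1 was at 34.8, 42.9 and 129.9 CPM at 11 days and 115.5, 123 and 35.6 CPM at 5 h, and CSD1, CSD2, NAS4, YSL2 and 4CL3 showed the same reversal. Over the genes tested, replicate 3 of 5 h in roots had a mean correlation of 0.974 with its own group and 0.985 with the 11 day group. For replicate 3 of 11 days these were 0.983 and 0.985. Replicates 1 and 2 of 5 h were also nearer to the other group (0.977 against 0.979 and 0.982 against 0.985), while replicates 1 and 2 of 11 days were nearer to their own. The labels were kept, whether these root samples are interchanged was not tested, and root results are given with and without both. In bulk tissue, fewer cells of a type and less RNA per cell cannot be told apart.

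Of 20811 genes tested, 742 (3.57%) were differentially expressed genes (DEGs, called by edgeR when 2-fold or more apart with adjusted p below 0.05). 354 genes (1.7%) rose and 388 (1.86%) fell at 11 days relative to 5 h, and 699 of the DEGs had no overlap between the 3 libraries of each group. By comparison, 15.2% of all tested genes lay higher and 16.1% lower at 11 days without overlap of the groups. The DEGs had a median log2 fold change of 1.3 where higher and -1.36 where lower. The count rested partly on single libraries: it was 215 higher and 239 lower without replicate 1 of 5 h, 260 and 322 without replicate 2 of 11 days, 258 and 233 without replicate 3 of 11 days, and 527 and 455 without replicate 3 of 5 h. 719 of the DEGs were protein-coding, and 3 were microRNA genes. The genes higher at 11 days had a median log2 fold change from untreated tpst of 0.49 at 11 days and -0.94 at 5 h, and the genes lower at 11 days had medians of -0.51 at 11 days and 0.95 at 5 h. Of all genes tested, 6.99% were higher and 7.76% lower at 11 days than in untreated tpst, and 7.72% were higher and 9.3% lower at 5 h. These contrasts share libraries with the one tested here, so the values are given side by side only.

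The sequences below are shown because several of the copper protein genes that fell are textbook targets of copper microRNAs. They were read from the RefSeq TAIR10.1 genome, whose gene coordinates matched those of the count table for 32520 of 32536 shared genes. In the microRNAs, written 5′ to 3′, capitals mark the seed (bases 2 to 8). miR398b and miR398c are identical over their whole length, lie at chr5:4691107-4691127 and chr5:4694778-4694798 on the plus strand, and share their seed with miR398a. miR408 lies at chr2:19319933-19319953 on the plus strand and miR857 at chr4:7878198-7878218 on the minus strand.
miR398c: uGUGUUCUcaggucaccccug
miR398a: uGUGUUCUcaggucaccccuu
miR408: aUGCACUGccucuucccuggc
miR857: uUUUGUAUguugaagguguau

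The best ungapped matches of the microRNAs in 5 textbook targets that fell and in LAC3 and LAC13, 2 targets of miR408 that did not pass the test, follow, with paired bases in capitals and mismatches or G:U pairs in lower case. The CSD1 site crosses an intron (chr1:2827177-2827685, plus strand) in the 5′ untranslated region and pairs 17 of 21 bases, a score reached by 9 of 31342 genes. The CSD2 site (chr2:12015572-12015592, plus strand, coding) pairs 13 bases and the site in CCS (chr1:4267521-4267541, minus strand, coding) pairs 15, scores as good as these being held by 12.194% and 1.567% of genes, so an ungapped match singles out neither. The ARPN site (chr2:827696-827716, minus strand, coding) pairs 19 bases with miR408, a score of 2 genes. The LAC7 site crosses an intron (chr3:2829996-2830397, minus strand, coding) and pairs 19 bases with miR857, the best score of all genes. LAC3 (chr2:12889603-12889623, minus strand, coding) and LAC13 (chr5:2210756-2210776, plus strand, 5′ untranslated region) each pair 17 bases with miR408, scores reached by 21 and 9 genes, so that matches as good as that of CSD1 also stood in targets with little difference. A match is a description of the letters and no evidence of cleavage.
CSD1: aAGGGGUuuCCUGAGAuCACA
CSD2: ugcGGGUGACCUGgGAAacau
CCS: auuGGGaGACCUGgGAACACu
ARPN: cCaAGGGAAGAGGCAGUGCAU
LAC7: AcACACCUUCAACgUACAAAA
LAC3: aCCAGuGAAGAGGCuGUGCAg
LAC13: GCCgGuGAAGAGGCuGUGCAg

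Iron deficiency genes were the group with the largest median increase at 11 days among the lists examined. Of 15 listed genes, all tested, 9 rose and none fell, with a median log2 fold change of 2.12 against -0.01 over all genes tested. Without any one library the number that rose was 8 to 10. BHLH100 (AT2G41240) was at 24.7, 12.5 and 33.2 CPM at 11 days and 0.277, 0.978 and 0.499 CPM at 5 h. The lowest 11 day library was far above every 5 h library, and the gene rose 39.0-fold (log2 fold change 5.28 ± 0.582 (SE), adjusted p = 2.88e-05). BHLH38 (AT3G56970) was at 16.4, 8.21 and 25.3 CPM at 11 days and 1.06, 0.861 and 1.04 CPM at 5 h, with a log2 fold change of 4.07 ± 0.526 (adjusted p = 0.000135). Its neighbour BHLH39 (AT3G56980) was at 14.9, 8.03 and 16.5 CPM at 11 days and 0.968, 0.9 and 1.5 CPM at 5 h, with a log2 fold change of 3.53 ± 0.421 (adjusted p = 6.18e-05). In each of these bHLH genes replicate 2 of 11 days was the lowest of its group and the groups stood far apart. BHLH101 had 46 counts over the 3 libraries of 11 days and 0 counts at 5 h, which makes it at least 14.7-fold higher at 11 days against a floor of 3 counts over the 5 h group, counting error only.

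The promoters of BHLH100 and BHLH38 are printed because both hold a G-box, the palindrome CACGTG to which bHLH factors bind. The 250 bases before the gene start are given on the strand of the gene, with the motif in capitals, for BHLH100 (chr2:17199455-17199704, minus strand, motif at base -91) and BHLH38 (chr3:21085246-21085495, minus strand, motif at base -97).
BHLH100: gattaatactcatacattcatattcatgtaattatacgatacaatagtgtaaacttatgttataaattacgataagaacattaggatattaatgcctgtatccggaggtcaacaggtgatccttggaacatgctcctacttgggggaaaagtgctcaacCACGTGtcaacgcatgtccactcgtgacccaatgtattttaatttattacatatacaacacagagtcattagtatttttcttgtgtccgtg
BHLH38: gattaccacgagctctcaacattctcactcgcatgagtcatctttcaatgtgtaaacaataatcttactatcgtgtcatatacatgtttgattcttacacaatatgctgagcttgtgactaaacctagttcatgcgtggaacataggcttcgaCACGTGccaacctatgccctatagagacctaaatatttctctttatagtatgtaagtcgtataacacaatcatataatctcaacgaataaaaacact
A G-box stood in 4 of 15 promoters of the iron deficiency list (26.7%) and in 7.2% of 20744 promoters of tested genes, and in 8.8% of promoters of genes that rose and 7.2% of those that fell. It also stood in 2 of 6 promoters of the iron storage list (33.3%), whose genes fell, so the motif did not go with 1 direction.

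Some genes that act on iron inside the plant moved with the transcription factors, and other iron genes did not. NAS4, which makes the iron chelator nicotianamine, was at 32.7, 28.9 and 57.3 CPM at 11 days and 7.7, 9.0 and 10.5 CPM at 5 h (log2 fold change 2.12 ± 0.203, adjusted p = 1.27e-05). Replicate 3 of 11 days was the highest, and the groups did not overlap. ZIF1, a vacuolar transporter that affects nicotianamine and zinc, rose less, by 1.03 ± 0.185 (adjusted p = 0.00144), and its call was lost in 3 of the alternatives. Several further members did not reach a 2-fold change. OPT3, which loads iron into the phloem, was at 0.93 ± 0.112 and the ferric reductase FRO3 at 0.86 ± 0.158. The bHLH factor PYE was at 0.71 ± 0.217 and the ubiquitin ligase BTS at 0.65 ± 0.188 on the log2 scale. MYB10 was at 0.34 and AT1G74770 at -0.08. Outside the list, the iron genes FIT and IREG2 were DEGs in the other direction, at -1.92 and -2.29. IRT1, used here as a root marker, was at -1.54 and was not a DEG.

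Several listed or top-ranked genes are not named in the files. AT1G47400 was at 22.9, 20.5 and 34.6 CPM at 11 days and 4.29, 3.13 and 3.22 CPM at 5 h (log2 fold change 2.88 ± 0.292, adjusted p = 1.65e-05). AT1G47395 rose by 2.80 ± 0.276, and whether reads were split between this pair was not tested. AT2G30766 rose by 2.42 ± 0.272. AT1G13609, a defensin-like protein, was at 70.1, 48.0 and 87.5 CPM at 11 days and 5.58, 4.81 and 4.87 CPM at 5 h, a difference of 3.75 ± 0.329 on the log2 scale (adjusted p = 8.37e-06). PAP14 (AT5G53450), annotated as a plastid-lipid-associated protein, was at 240.2, 163 and 296 CPM at 11 days and 57.5, 48.6 and 45.4 CPM at 5 h (log2 fold change 2.21 ± 0.209, adjusted p = 1.27e-05). Neither of these 2 genes was a member of the iron list, and in both the groups did not overlap.

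Iron storage genes lay at the opposite end. Of 6 listed genes 4 fell and none rose, with a median of -1.02. FER1 (AT5G01600), the main leaf ferritin, was at 28.5, 36.1 and 31.0 CPM at 11 days and 427, 677 and 415 CPM at 5 h. The 5 h libraries were all above 400 CPM and the 11 day libraries all below 40 CPM. FER1 fell 15.9-fold (log2 fold change -3.99 ± 0.247, adjusted p = 1.81e-07), the smallest p of the comparison, and its adjusted p was at most 6.57e-06 when any one library was left out. Its level was 33.2 ± 2.68 CPM in untreated tpst, 317 ± 28.4 CPM after 2 h of PSK and 118 ± 28.9 CPM in WT. FER1 overlaps AT5G01595, and whether the counting used strand was not stated, so reads of this pair cannot be told apart.

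The other ferritins moved less. FER3 was at 67.6, 79.2 and 77.8 CPM at 11 days and 142, 160.4 and 156 CPM at 5 h (log2 fold change -1.03 ± 0.108, adjusted p = 2.22e-05). FER4 was at 8.54, 16.3 and 10.9 CPM at 11 days and 24.9, 22.9 and 24.2 CPM at 5 h (-1.01 ± 0.21, adjusted p = 0.00373). Both stood apart between the groups but lay close to the 2-fold limit, as did the call of the vacuolar iron transporter-like gene VTL5 (-1.55 ± 0.472, adjusted p = 0.0305) to the p limit. Without replicate 1 of 11 days only 1 member of the list fell, and without replicate 3 of 11 days 2 members fell.

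**Figure D1:**
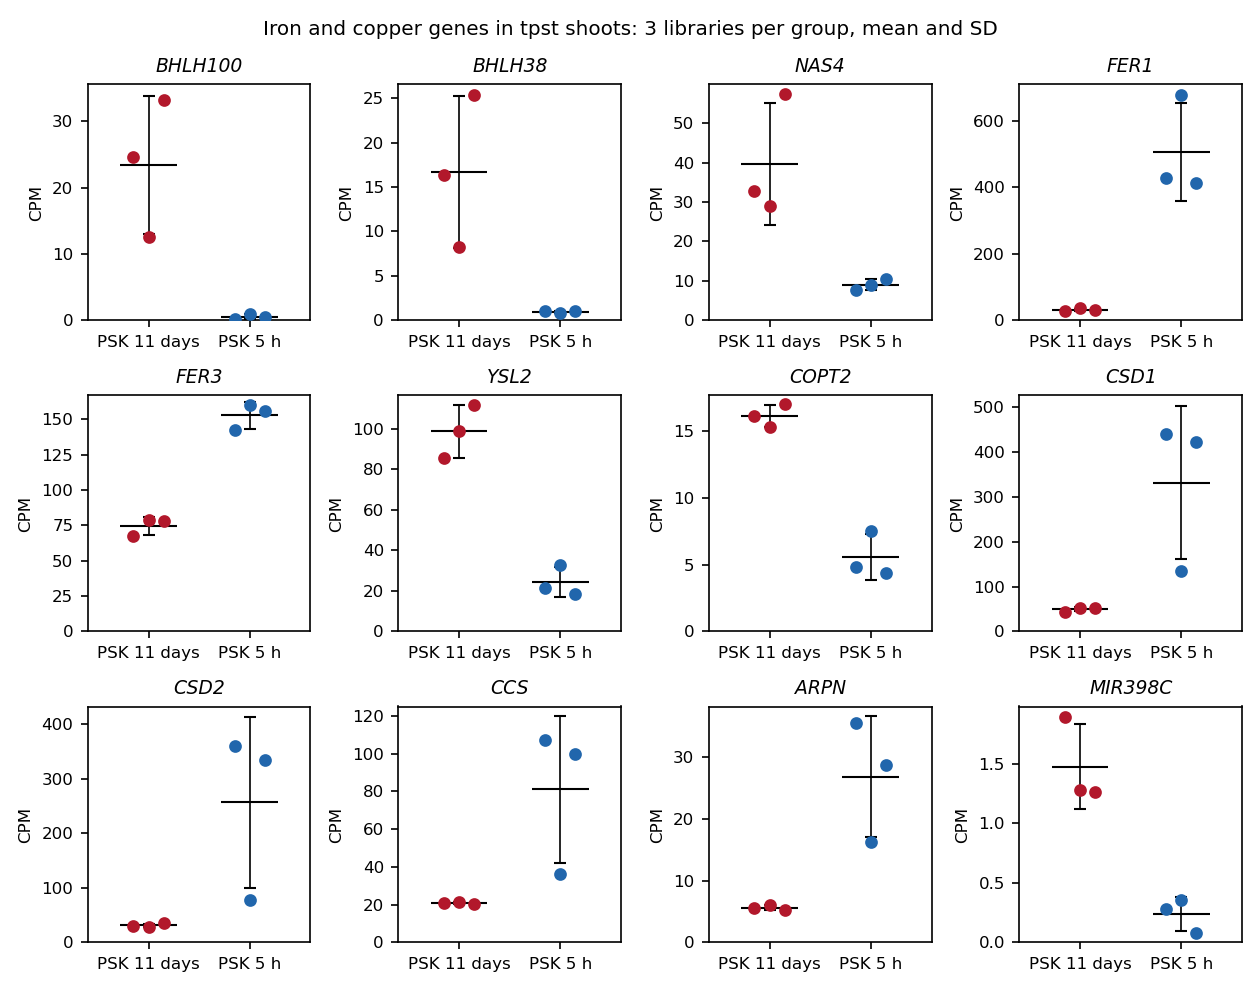
Levels of 12 iron and copper genes in CPM (y axis, from 0) in tpst shoots after 11 days of PSK (red) and 5 h of PSK (blue). Points are the 3 libraries, the horizontal bar is the mean and the error bar the SD. The groups do not overlap in any of the 12 genes, BHLH100 and FER1 differ most, and replicate 2 of 5 h lies below the other 5 h libraries in CSD1, CSD2, CCS and ARPN.

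Copper genes changed in both directions. Of 14 listed genes 4 rose and 3 fell, with a median of 0.42. The 3 that fell were the Cu/Zn superoxide dismutases and the chaperone that loads copper into them. CSD1 (AT1G08830), the cytosolic dismutase, was at 44.3, 53.0 and 52.3 CPM at 11 days and 439.7, 134 and 422 CPM at 5 h. CSD2 (AT2G28190), its plastid counterpart, was at 29.4, 29.2 and 34.8 CPM at 11 days and 360.4, 77.2 and 334 CPM at 5 h. CCS (AT1G12520), the chaperone, was at 20.9, 21.5 and 20.2 CPM at 11 days and 107, 36.5 and 100.02 CPM at 5 h. In all 3 genes the 11 day libraries were tightly grouped and below every 5 h library, while replicate 2 of 5 h lay well below the other 5 h libraries. CSD1 fell by 2.73 ± 0.445 on the log2 scale (adjusted p = 0.000778), CSD2 fell by 3.05 ± 0.54 (adjusted p = 0.00132) and CCS fell by 1.96 ± 0.408 (adjusted p = 0.00373). Each call held when any one library was left out, with adjusted p-values of 0.000295 to 0.00526 for CSD1. CSD1 overlaps AT1G08840.

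Untreated tpst shoots had CSD2 at 287 ± 15.2 CPM and WT shoots at 135 ± 57.3 CPM (SD, n = 3 each). The 5 h mean of 257 ± 156 CPM lay near the untreated level as an average only. Replicate 2 of 5 h was far below the untreated mean and the other 5 h libraries were above it. The 11 day mean of 31.1 ± 3.2 CPM lay below the means of all these groups. The 11 day libraries thus differed from untreated shoots in CSD2 by -3.21 on the log2 scale, and the 5 h libraries by -0.16.

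The copper genes that rose included genes of uptake and transport. YSL2 (AT5G24380), a metal-nicotianamine transporter, was at 85.5, 98.9 and 112 CPM at 11 days and 21.2, 32.6 and 18.7 CPM at 5 h. Every 11 day library was more than 2 times as high as any 5 h library, and the gene rose 4.07-fold (2.03 ± 0.263, adjusted p = 0.000141). COPT2 (AT3G46900), a plasma membrane copper transporter, was at 16.1, 15.3 and 17.0 CPM at 11 days and 4.84, 7.55 and 4.34 CPM at 5 h (1.53 ± 0.31, adjusted p = 0.00319). AT1G71200, annotated as a bHLH DNA-binding protein, was at 1.48, 2.63 and 2.38 CPM at 11 days and 0, 0.235 and 0.0384 CPM at 5 h (4.44 ± 0.774, adjusted p = 0.00119). FRO5, a copper-responsive metal reductase, was low at 0.594, 0.548 and 0.583 CPM at 11 days, with 0 CPM in 2 of the 5 h libraries, and its call (adjusted p = 0.0242) was lost in 5 alternatives. FSD1, the iron superoxide dismutase that takes over when copper is short, was higher in every 11 day library than in any 5 h library but missed the 2-fold limit (0.95 ± 0.193, adjusted p = 0.00315).

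MicroRNA genes and microRNA targets outside the list were examined after the values of the copper genes had been seen. Poly(A) libraries hold precursors and not mature microRNAs. MIR398C (AT5G14565) had 51, 35 and 28 counts at 11 days and 6, 9 and 2 counts at 5 h. It rose by 2.64 ± 0.714 on the log2 scale (adjusted p = 0.0169), and lost the call only without replicate 3 of 5 h (adjusted p = 0.0563). MIR398B and MIR408 had 0 counts in every library, and both overlap another annotated gene. Among targets of miR408, ARPN (a basic blue copper protein of the plantacyanin family) was at 5.53, 6.06 and 5.25 CPM at 11 days and 35.5, 16.2 and 28.7 CPM at 5 h and fell by 2.25 ± 0.308 (adjusted p = 0.000228). The uclacyanin UCC2 fell by 1.09 ± 0.177 (adjusted p = 0.000772), and lost the call without replicate 3 of 11 days, whereas the laccases LAC3 and LAC13 differed by -0.09 ± 0.185 and -0.09 ± 0.198. LAC7, the target of miR857, fell by 1.49 ± 0.234 (adjusted p = 0.000612). COX5B-1, a subunit of cytochrome c oxidase and a further miR398 target, was lower by less than 2-fold (-0.53 ± 0.11, adjusted p = 0.00352). The other microRNA genes among the DEGs were MIR863A, higher by 1.17 ± 0.323, and MIR167D, lower by -1.76 ± 0.319.

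The promoters of MIR398C and YSL2 are printed because each holds the SPL7 core GTAC 3 times (capitals) in 250 bases, a motif chosen after the values were seen. They lie at chr5:4694444-4694693 and chr5:8323645-8323894 on the plus strand, and for MIR398C the start of the annotated hairpin was taken as the gene start.
MIR398C: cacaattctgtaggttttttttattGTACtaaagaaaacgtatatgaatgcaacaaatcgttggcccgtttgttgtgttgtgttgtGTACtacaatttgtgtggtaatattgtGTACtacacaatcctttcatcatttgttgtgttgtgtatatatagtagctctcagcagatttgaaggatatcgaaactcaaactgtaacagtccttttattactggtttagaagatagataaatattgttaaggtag
YSL2: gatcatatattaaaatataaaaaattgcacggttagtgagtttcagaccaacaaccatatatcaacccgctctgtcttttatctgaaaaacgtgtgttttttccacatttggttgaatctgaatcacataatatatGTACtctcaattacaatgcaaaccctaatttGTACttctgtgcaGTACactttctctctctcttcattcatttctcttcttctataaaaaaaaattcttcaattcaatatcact
At least 3 copies of GTAC stood in 3.1% of the promoters of genes that rose, 0.3% of those that fell and 1.4% of all, while at least 1 copy stood in 36.4%, 35.1% and 34.5% of these sets.

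**Figure D2:**
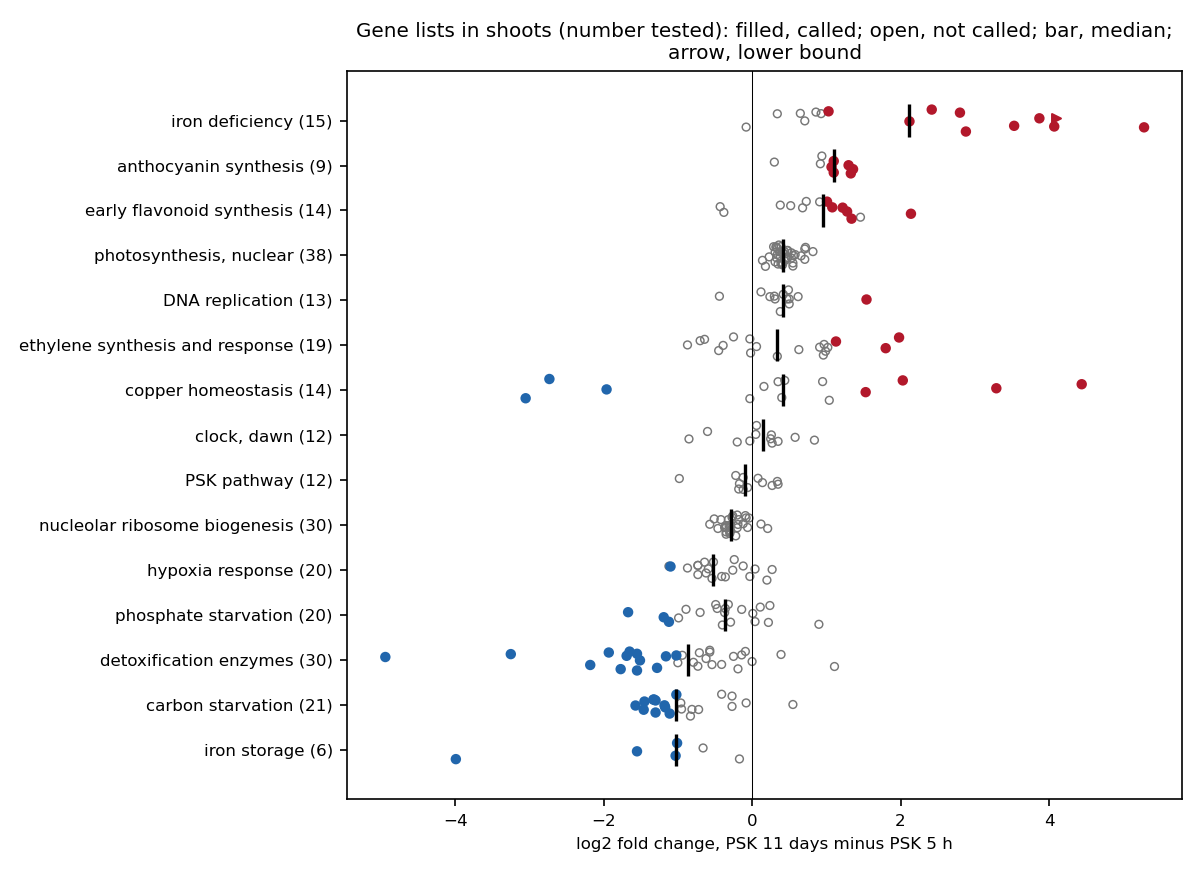
Log2 fold change (x axis) of PSK 11 days minus PSK 5 h for the members of 15 gene lists in shoots, with the number tested in brackets. Filled points are DEGs, open points are not, the black bar is the list median, and the arrow marks BHLH101, drawn at its lower bound. Iron deficiency genes have the highest median (2.12) and iron storage and carbon starvation genes the lowest (-1.02).

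Flavonoid and anthocyanin genes rose as groups of moderate size. Of 14 tested early flavonoid genes 6 rose and none fell (median 0.96), and of 9 genes of anthocyanin synthesis 6 rose and none fell (median 1.1). Without replicate 3 of 11 days 4 of the early genes rose. 4CL3, the 4-coumarate:CoA ligase that feeds flavonoid synthesis, was at 73.3, 98.9 and 107 CPM at 11 days and 13.5, 19.0 and 30.7 CPM at 5 h (2.14 ± 0.207, adjusted p = 1.27e-05). FLS1, the flavonol synthase, was at 128, 173 and 184 CPM at 11 days and 61.1, 54.2 and 76.8 CPM at 5 h (1.34 ± 0.13, adjusted p = 1.27e-05). Both genes were higher in every 11 day library than in any 5 h library. The entry enzymes PAL1 and PAL2 rose by 1.28 ± 0.163 and 1.08 ± 0.104, and the flavonol glycosyltransferases UGT78D1 and UGT78D2 by 1.22 ± 0.119 and 1.01 ± 0.101. CHI3, a chalcone isomerase-like protein outside the list, was at 84.3, 122 and 126 CPM at 11 days and 31.9, 31.4 and 43.5 CPM at 5 h (1.64 ± 0.149, adjusted p = 9.02e-06).

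The step enzymes between them moved less. CHS, the committed chalcone synthase, differed by 0.68 ± 0.0995 and CHI by 0.73 ± 0.0831, both under 2-fold with adjusted p-values of 0.000399 and 3.73e-05, and C4H lay below 0 (-0.43 ± 0.0829, adjusted p = 0.00221). Among anthocyanin genes GSTF12, which carries anthocyanin to the vacuole, was at 45.3, 56.2 and 47.6 CPM at 11 days and 15, 18 and 25 CPM at 5 h (1.36 ± 0.153, adjusted p = 3.52e-05). The decorating enzymes 5MAT, UGT79B1 and UGT75C1 rose by 1.33 ± 0.195, 1.3 ± 0.142 and 1.1 ± 0.12, and the regulators TT8 and MYB75 by 1.1 ± 0.169 and 1.07 ± 0.299. The call of MYB75 (adjusted p = 0.0203) was lost in 4 alternatives. DFR was not a DEG (0.30 ± 0.163).

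Detoxification genes were the list with the most members that fell. Of 30 tested genes 13 fell and none rose (median -0.86), with 11 to 16 that fell when any one library was left out. In 21 of the 30 every 11 day library was lower than any 5 h library. Over all genes tested, 1.86% fell and 16.1% were lower without overlap. GSTU9, a tau class glutathione transferase, was at 20.7, 13.1 and 9.1 CPM at 11 days and 51.4, 62.8 and 50.3 CPM at 5 h (-1.93 ± 0.219, adjusted p = 3.73e-05). The groups stood well apart, and both lay above the 1.7 ± 0.356 CPM of untreated tpst. GSTU3 was at 0.408, 0.402 and 0.449 CPM at 11 days and 28.5, 3.29 and 7.29 CPM at 5 h, the lowest fold change among genes that met the naming rule (-4.94 ± 0.837, adjusted p = 0.001), with replicate 1 of 5 h far above the other 5 h libraries. DTX3, a MATE efflux transporter, was at 78.0, 53.0 and 58.0 CPM at 11 days and 192, 207 and 139 CPM at 5 h (-1.51 ± 0.251, adjusted p = 0.000889). DTX4 (-1.28 ± 0.239), GSTU24 (-1.16 ± 0.157) and GSTU25 (-1.77 ± 0.338) also fell. Whether DTX3 and DTX4, or GSTU24 and GSTU25, share reads was not tested.

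Further members that fell were the glucosyltransferases UGT73B4 (-1.55 ± 0.213) and UGT74E2 (-1.55 ± 0.297), the cytochromes CYP81D8 (-1.65 ± 0.373) and CYP81D11 (-2.18 ± 0.397), and the reductase OPR1 (-1.02 ± 0.141). The abundant GSTU19 and GSTF8 were near 0 (-0.00 ± 0.0605 and -0.09 ± 0.139). The list stood at a median of 0.99 above untreated tpst at 11 days and 2.25 at 5 h. ABCB4, an auxin transporter of the ABC family that is not in the list, was at 95.1, 50.2 and 52.9 CPM at 11 days and 247, 323 and 238 CPM at 5 h (-2.03 ± 0.229, adjusted p = 3.64e-05).

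Mitochondrial retrograde genes respond to signals from impaired mitochondria. Of 12 such genes 1 rose and 1 fell (median -0.33). The number that fell was 3 without replicate 2 of 11 days and 2 without replicate 1 or 3 of 5 h, and 2 rose without replicate 1 of 11 days or replicate 2 of 5 h. AOX1D, an alternative oxidase, was at 6.01, 1.39 and 1.03 CPM at 11 days and 18.5, 12.7 and 16.2 CPM at 5 h (-2.47 ± 0.53, adjusted p = 0.0045). Its better known relative AOX1A was at 122, 133 and 103 CPM at 11 days and 242, 247 and 206 CPM at 5 h, a difference just under 2-fold (-0.96 ± 0.167, adjusted p = 0.00119). The dicarboxylate carrier DIC2 was at 86.0, 122 and 70.4 CPM at 11 days and 37.8, 41.8 and 24.7 CPM at 5 h (1.42 ± 0.201, adjusted p = 0.000302). AT5G54100, a stomatin-like protein, fell by 1.24 ± 0.114 (adjusted p = 9.02e-06).

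The promoters of GSTU9 and DTX3 are printed as examples of 2 motifs that were searched. GSTU9 (chr5:25089627-25089876, minus strand) holds the TGA factor site TGACGT on the opposite strand, and DTX3 (chr2:1339469-1339718, minus strand) holds the mitochondrial dysfunction motif at 2 places, in capitals.
GSTU9: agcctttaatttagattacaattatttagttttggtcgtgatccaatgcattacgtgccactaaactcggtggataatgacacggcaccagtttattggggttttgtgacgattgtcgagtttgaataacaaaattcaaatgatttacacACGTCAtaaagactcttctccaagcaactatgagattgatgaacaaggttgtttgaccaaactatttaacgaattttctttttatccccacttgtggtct
DTX3: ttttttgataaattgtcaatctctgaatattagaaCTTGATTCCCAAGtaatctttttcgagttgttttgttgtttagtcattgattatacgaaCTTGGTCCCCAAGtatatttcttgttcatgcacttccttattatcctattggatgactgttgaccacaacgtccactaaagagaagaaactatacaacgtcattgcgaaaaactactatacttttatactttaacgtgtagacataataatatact
On either strand of the 250 bases, the TGA site stood in 26.7% of detoxification promoters, 0.0% of the mitochondrial list, 13.2% of promoters of genes that fell, 11.1% of those that rose and 8.0% of all. In the same order of sets, the mitochondrial dysfunction motif stood in 10.0%, 33.3%, 5.2%, 1.4% and 1.4%, and the W-box (TTGACC or TTGACT), the site of WRKY factors, in 73.3%, 66.7%, 38.5%, 30.7% and 28.2%. The motif TGGGCC, common before genes of growing cells, stood in 4.1% of the promoters of genes that fell, 7.7% of those that rose and 16.1% of all.

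Genes that mark carbon starvation fell. Of 21 tested genes 11 fell and none rose (median -1.02), where 1.86% of all genes fell. In 18 of the 21 every 11 day library was lower than any 5 h library, as in 16.1% of all genes. STP1, a sugar transporter repressed by sugar, was at 28.1, 27.6 and 23.9 CPM at 11 days and 73.3, 65.5 and 57.0 CPM at 5 h (-1.3 ± 0.183, adjusted p = 0.000283). TPS10, a class II trehalose phosphate synthase, was at 99.7, 63.3 and 56.8 CPM at 11 days and 263, 191 and 152 CPM at 5 h (-1.46 ± 0.229, adjusted p = 0.000593). SEN1, a dark-induced senescence gene, was at 62.5, 52.8 and 29.9 CPM at 11 days and 162, 105 and 90.1 CPM at 5 h (-1.3 ± 0.27, adjusted p = 0.00377). In SEN1 and TPS10 replicate 1 was the highest library of both groups. DIN10, BT2, TPS8, TPS9, TPS11, ASN1, DRM1 and DRM2 also fell, by 1.02 to 1.57 on the log2 scale. The number was 5 without replicate 1 of 5 h, 6 without replicate 3 of 11 days and 7 when the 6 libraries were fitted alone. AT3G15450, which the files do not name, was at 27.9, 18.5 and 10.0 CPM at 11 days and 188, 109 and 58.8 CPM at 5 h (-2.65 ± 0.451, adjusted p = 0.00103).

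Other nutrient lists held few DEGs. Of 20 tested phosphate starvation genes 3 fell (median -0.36), and 1 fell without replicate 3 of 11 days, 2 without replicate 1 or 2 of 5 h or replicate 2 of 11 days, and 5 without replicate 1 of 11 days. GDPD1, a phosphodiesterase, was at 67.9, 45.6 and 27.1 CPM at 11 days and 214, 145 and 90.6 CPM at 5 h (-1.67 ± 0.304, adjusted p = 0.00155). The phosphate sensors SPX1 and SPX3 fell by 1.19 ± 0.294 and 1.12 ± 0.381, each lost in several alternatives, whereas the galactolipid and sulfolipid enzymes MGD2 (0.22 ± 0.18) and SQD2 (0.11 ± 0.127) were not DEGs. Among 20 tested nitrate genes 3 rose and 2 fell (median -0.11). LBD37, a nitrate-induced repressor of nitrogen genes, was at 57.2, 89.8 and 102 CPM at 11 days and 24.6, 27.9 and 47.3 CPM at 5 h (1.31 ± 0.24, adjusted p = 0.0016). HRS1, another nitrate-regulated repressor, was at 11.1, 7.77 and 7.8 CPM at 11 days and 44.9, 21.3 and 12.9 CPM at 5 h (-1.56 ± 0.312, adjusted p = 0.00298), a call lost without replicate 1 of 5 h. Without replicate 1 of 5 h 1 gene of the nitrate list rose and 1 fell, and without replicate 2 of 5 h or replicate 3 of 11 days 1 rose. BGLU30, a glucosidase of the sulfur deficiency list, was the only member of 17 that fell (-2.87 ± 0.365, adjusted p = 0.000114).

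Signaling genes of ethylene and of pattern-triggered immunity, the response to microbial patterns such as flagellin, were partly higher at 11 days. Of 19 tested ethylene genes 3 rose and none fell (median 0.34). ERF5, an ethylene response factor, was at 14.5, 24.5 and 18.3 CPM at 11 days and 4.66, 5.24 and 4.64 CPM at 5 h (1.98 ± 0.196, adjusted p = 1.42e-05). The groups did not overlap, and both lay below the 51.5 ± 6.48 CPM of untreated tpst. ACS7, an enzyme of ethylene synthesis, was at 7.05, 19.9 and 11.4 CPM at 11 days and 3.6, 4.19 and 3.22 CPM at 5 h (1.80 ± 0.44, adjusted p = 0.00977). Its call was lost without replicate 2 of 11 days, the highest library, when 1 member of the list rose, whereas 6 rose without replicate 1 of 11 days and 5 without replicate 2 of 5 h. ERF13 was at 10.2, 29.2 and 25.7 CPM at 11 days and 3.5, 5.52 and 4.22 CPM at 5 h (2.29 ± 0.416, adjusted p = 0.00155).

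WRKY factors regulate defense genes and moved in both directions. Of 60 tested members 5 rose and 4 fell (median -0.02). WRKY22 was at 13.4, 22.9 and 14.3 CPM at 11 days and 4.75, 5.48 and 3.57 CPM at 5 h (1.88 ± 0.236, adjusted p = 0.000104). WRKY54, WRKY46, WRKY40 and WRKY44 rose by 1.22 ± 0.232, 1.21 ± 0.363, 1.14 ± 0.338 and 1.01 ± 0.215. WRKY75, which takes part in phosphate and senescence responses, was at 2.15, 2.3 and 1.61 CPM at 11 days and 12.5, 5.83 and 6.56 CPM at 5 h (-2.02 ± 0.326, adjusted p = 0.000715). WRKY63, WRKY51 and WRKY26 fell by 1.43 ± 0.372, 1.15 ± 0.35 and 1.00 ± 0.217. WRKY33 (1.00 ± 0.36, adjusted p = 0.0599) and WRKY18 (0.98 ± 0.313) were not DEGs. The numbers were 3 higher and 2 lower without replicate 1 of 5 h, 3 and 5 without replicate 3 of 5 h, 3 and 6 without replicate 2 of 11 days, and 3 and 1 without replicate 3 of 11 days.

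Of 31 immunity markers 4 rose and 2 fell (median 0.33). Besides WRKY22 and WRKY40 the ubiquitin ligase ATL2 (1.04 ± 0.164) and the zinc finger protein ZAT10 (1.04 ± 0.232) rose, and the berberine bridge enzyme FOX5 (-1.25 ± 0.227) and NHL10 (-1.56 ± 0.413) fell. Only 1 rose without replicate 3 of 5 h or replicate 2 of 11 days, 9 rose without replicate 1 of 11 days, and without replicate 3 of 11 days 1 fell. The receptor FLS2 differed by 0.51 ± 0.164. Of 20 genes of salicylic acid 3 fell and none rose (median -0.03). PR1, the marker of salicylic acid signaling, was at 49.0, 85.6 and 33.9 CPM at 11 days and 156, 222 and 224 CPM at 5 h (-1.84 ± 0.419, adjusted p = 0.00657). PR2 fell by 1.29 ± 0.306, DLO1, a salicylic acid hydroxylase, by 1.12 ± 0.336, and BG3, a glucanase next to PR2 and outside the list, by 2.34 ± 0.507. The synthesis enzyme ICS1 was at -0.10 ± 0.196. JRG21, a jasmonate-regulated dioxygenase, was at 1.93, 1.83 and 0.538 CPM at 11 days and 49.8, 13.6 and 11.9 CPM at 5 h (-4.09 ± 0.742, adjusted p = 0.00153), and the pectin methylesterase PME17 fell by 2.36 ± 0.363 (adjusted p = 0.000534).

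**Figure D3:**
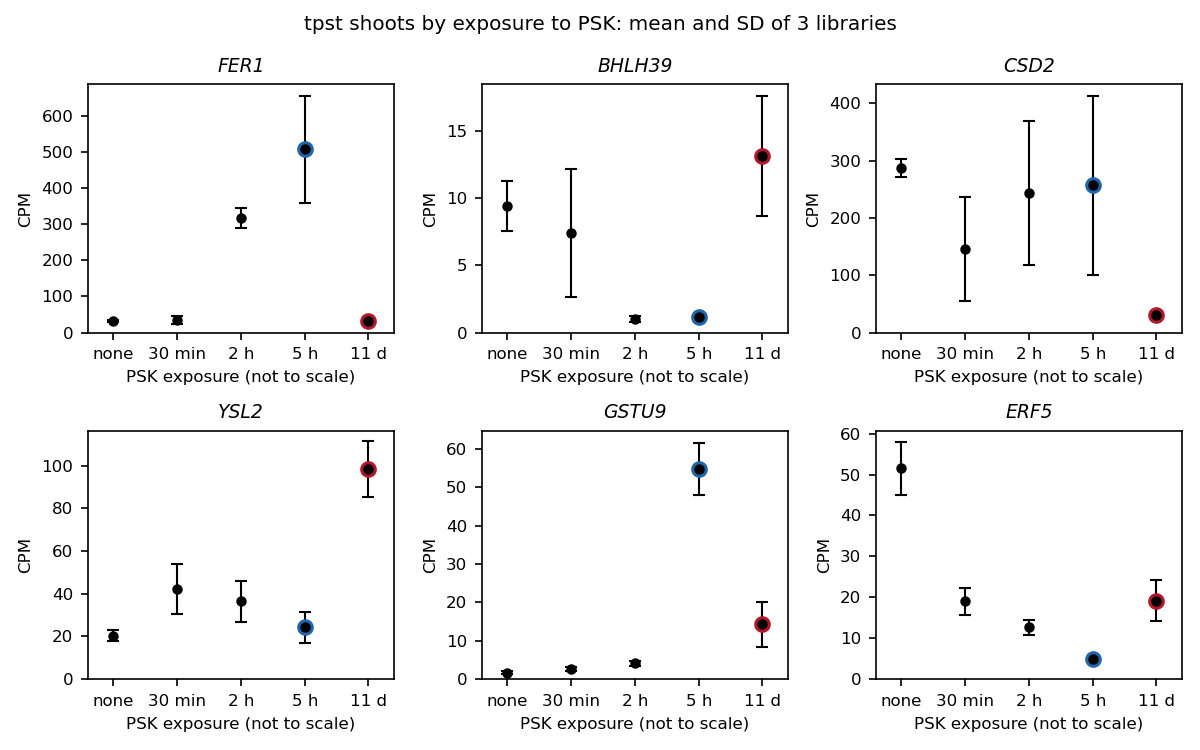
Levels of 6 genes in CPM (y axis, from 0) in tpst shoots by exposure to PSK (x axis, not to scale), as mean and SD of 3 libraries. Blue marks 5 h and red 11 days. FER1 is at 33.2 CPM untreated, 506 CPM at 5 h and 31.9 CPM at 11 days. The mean of CSD2 stays high to 5 h, where replicate 2 lies far below the other libraries, and is at 31.1 CPM at 11 days.

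The pattern over all exposures differed between gene groups. FER1 and BHLH39 were nearer to the untreated level at 11 days than at 5 h, as the plot of levels by exposure shows. The iron deficiency list had a median of -0.21 relative to untreated tpst at 11 days and -2.36 at 5 h. For the copper genes the 11 day group was the one apart, with YSL2 at 98.6 ± 13.0 CPM at 11 days, 24.2 ± 7.42 CPM at 5 h and 20.4 ± 2.63 CPM in untreated tpst (SD, n = 3 each). ERF5 and GSTU9 lay between the 5 h and untreated levels at 11 days. These levels rest on the shared untreated libraries and are given side by side, without a test.

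Several processes with large differences from untreated tpst showed few or no DEGs between 11 days and 5 h. Of 12 clock genes that peak around dawn none was a DEG (median 0.15), with medians above untreated tpst of 2.19 at 11 days and 2.17 at 5 h. CCA1, a central clock repressor, was at 140.3, 135 and 120.0 CPM at 11 days and 95.3, 109 and 126 CPM at 5 h, with overlapping groups (0.26 ± 0.174). LHY, its partner, was higher without overlap, by 0.58 ± 0.0967 (adjusted p = 0.000894). GI, the only DEG of 9 evening genes, was at 12.9, 10.1 and 12.7 CPM at 11 days and 2.63, 5.09 and 5.41 CPM at 5 h (1.43 ± 0.338, adjusted p = 0.00811). Of 20 tested hypoxia genes 1 fell, AT5G10040, at an adjusted p that rounds to 0.05, and it was lost in 7 alternatives, and the list median was -0.53. The alcohol dehydrogenase ADH1, the marker of fermentation, differed by -0.36 ± 0.142 (adjusted p = 0.0845).

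Growth and photosynthesis genes differed by small amounts. None of 38 nuclear photosynthesis genes was a DEG, yet all lay above 0 (median 0.41) and 32 were higher in every 11 day library than in any 5 h library, where 15.2% of all genes were. None of 30 nucleolar ribosome biogenesis genes was a DEG (median -0.29), and 14 were lower without overlap, where 16.1% of all genes were. Among 13 DNA replication genes (median 0.42) TSO2, a small subunit of ribonucleotide reductase, was at 58.6, 66.1 and 98.2 CPM at 11 days and 19.3, 28.3 and 29.1 CPM at 5 h and rose by 1.54 ± 0.187 (adjusted p = 7.36e-05). None of 197 cytosolic ribosomal protein genes was a DEG (median -0.01). Among 19 tested genes of aliphatic glucosinolate synthesis only the regulator MYB29 rose (1.16 ± 0.184), a call lost without replicate 3 of 11 days. Of the 19 genes (median 0.51), 14 were higher without overlap, where 15.2% of all genes were. IPMI2, an isopropylmalate isomerase subunit outside the list that acts in leucine and methionine chain elongation, was at 88.0, 93.8 and 112 CPM at 11 days and 43.7, 36 and 47 CPM at 5 h (1.22 ± 0.104, adjusted p = 8.04e-06).

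No gene of the PSK pathway was a DEG with all libraries. PSK4, a precursor gene, came closest, at 10.5, 15 and 13.9 CPM at 11 days and 34.2, 25.8 and 17.9 CPM at 5 h. It was lower in every 11 day library than in any 5 h library but within 2-fold (-0.98 ± 0.21, adjusted p = 0.00441). It passed both limits without replicate 3 of 5 h (-1.19), replicate 2 of 11 days (-1.1) or replicate 3 of 11 days (-1.02). The receptor PSKR1 was at 27.4, 27.7 and 31.5 CPM at 11 days and 31.1, 33.0 and 29.6 CPM at 5 h (-0.12 ± 0.114) and PSKR2 was at 0.08 ± 0.111. The precursors PSK2, PSK3 and PSK5 were at -0.17 ± 0.399, 0.27 ± 0.217 and 0.35 ± 0.196, and PSK1 was too low to test. The co-receptor BAK1 (-0.22 ± 0.1), the proton pumps AHA1 (-0.12 ± 0.0736) and AHA2 (-0.06 ± 0.077), the related peptide gene PSY1 (0.34 ± 0.194) and its receptor PSY1R (-0.18 ± 0.126) were not DEGs either.

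Further genes that the naming rule gave do not belong to a list. CDI, annotated as a nucleotide-sugar transferase, was at 46.6, 43.8 and 58.0 CPM at 11 days and 14.3, 15.8 and 15.9 CPM at 5 h (1.69 ± 0.138, adjusted p = 6.95e-06). NUDT25, a Nudix hydrolase, rose by 1.90 ± 0.173, AT4G36700, a vicilin-like seed storage protein, by 3.40 ± 0.527, and AT3G21660, a UBX domain protein, by 3.12 ± 0.583. AT2G38823 fell by 2.07 ± 0.179, AT5G55150, a putative F-box protein, by 2.2 ± 0.379, and AT5G65207 by 2.73 ± 0.634, the last lost without replicate 1 of 5 h.

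The same contrast was made in roots of the same seedlings. The difference between the tissues was tested in a fit of all 36 libraries that did not pair shoots with roots. With all libraries, edgeR called 0 root genes (0.0% of 22303 tested), with 753 genes (3.38%) at an unadjusted p under 0.05, where 33.0% of genes tested in shoots were. A fit of the 18 root libraries alone gave 0 DEGs with edgeR and 1 with DESeq2. Without the pair of root libraries numbered 3, an alternative chosen after values were seen, edgeR called 157 genes higher and 80 lower at 11 days in roots (1.05% of 22505 tested), while 3352 genes (14.9%) had an unadjusted p under 0.05. The counts from DESeq2 were 255 and 124. The count of 0 in roots therefore rested on these libraries. Without them 3 of 15 iron deficiency genes rose in roots and 4 of 6 iron storage genes fell, and 4 of 14 copper genes rose.

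The log2 difference of shoots minus roots passed the test in 244 genes (1.09%), 116 higher (0.52%) and 128 lower (0.574%) in shoots. Without the pair of root libraries it did so in 287 genes (1.28%), 126 higher and 161 lower. The number depended also on single libraries: it was 58 and 56 without replicate 1 of 5 h of shoots, 76 and 85 without replicate 2 of 5 h, 241 and 194 without replicate 3 of 5 h, 198 and 187 without replicate 1 of 11 days, 61 and 60 without replicate 3 of 11 days, and 76 and 86 without replicate 1 of 11 days of roots. The genes that rose in shoots had a median log2 fold change of 0.12 in roots with all libraries and 0.35 without the pair, and those that fell had medians of -0.12 and -0.31.

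**Figure D4:**
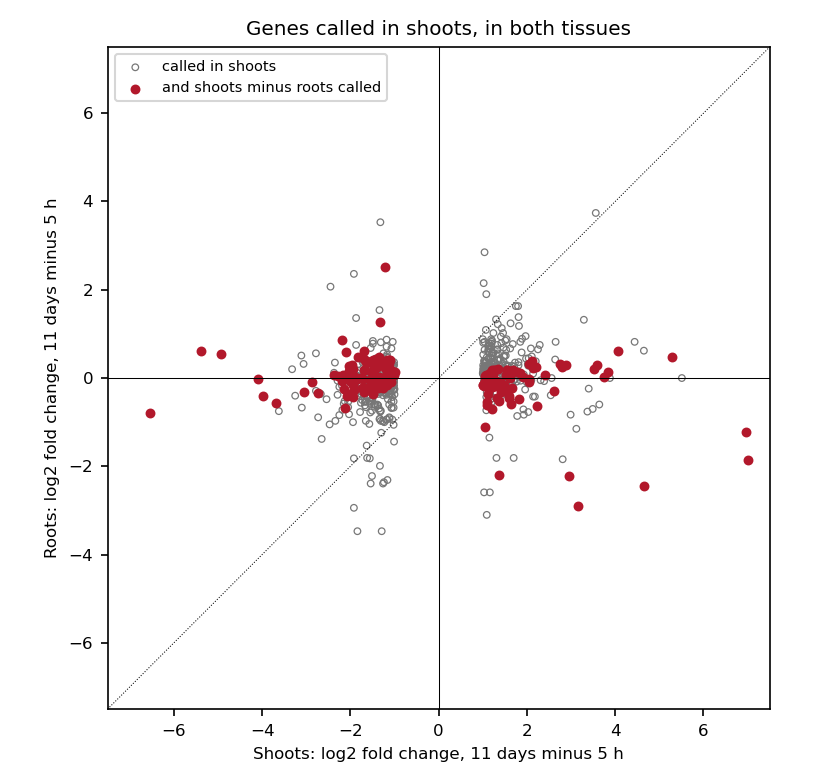
Log2 fold change of 11 days minus 5 h of PSK in shoots (x axis) and in roots (y axis) for the DEGs of shoots, with all libraries. Red points also passed the test of shoots minus roots, the dotted line marks equal change, and values of genes with 0 counts in a group are fitted. Root values cluster around 0, and they include the pair of root libraries numbered 3, without which the root medians were 0.35 and -0.31.

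The bHLH genes of iron deficiency differed between the tissues in both fits. BHLH38 in roots was at 15.8, 10.8 and 9.33 CPM at 11 days and 7.33, 6.1 and 9.86 CPM at 5 h, with overlap. Its difference of shoots minus roots was 3.45 ± 0.598 (adjusted p = 0.00183) and 3.09 ± 0.659 without the pair (adjusted p = 0.0107). BHLH100 differed by 4.82 ± 0.679 and by 4.7 ± 0.762 without the pair. FER1 differed by -3.59 ± 0.527 (adjusted p = 0.00034), and by -2.37 ± 0.326 without the pair (adjusted p = 0.000214), when FER1 also fell in roots by 1.62 ± 0.254 (adjusted p = 0.000616).

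Other differences did not pass the test without the pair. CSD1 in roots was at 182, 178 and 610.3 CPM at 11 days and 672, 381 and 187 CPM at 5 h. Shoots minus roots was -2.38 ± 0.66 for CSD1 and -2.73 ± 0.689 for CSD2, and -1.19 ± 0.584 and -1.73 ± 0.671 without the pair (adjusted p = 0.296 and 0.17). NAS4 and 4CL3, at 1.74 ± 0.421 and 1.91 ± 0.5, came to 0.81 ± 0.289 and 0.63 ± 0.326, and without the pair they rose in roots by 1.31 ± 0.223 and 1.52 ± 0.258.

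Most of the smallest p-values of the tissue difference belonged to genes with little change in roots. FER1, given above, was also among them, and it fell in roots without the pair. GLCAT14C, a glucuronosyltransferase of cell wall proteins, averaged 13.9 CPM at 11 days and 14.9 CPM at 5 h in roots, with overlap. In shoots it was at 7.94, 9.13 and 8.93 CPM at 11 days and 3.41, 3.52 and 4.14 CPM at 5 h, and the tissues differed by 1.32 ± 0.144 (adjusted p = 6.55e-06). NUDT25 (1.88 ± 0.211), CDI (1.5 ± 0.2) and PAP14 (AT5G53450, 1.96 ± 0.274) were also higher in shoots, as was IPMI2 (1.03 ± 0.138), which came to 0.96 without the pair. AT5G54100 (-1.23 ± 0.131), ABCB4 (-2.18 ± 0.264), AT5G40690 (-1.76 ± 0.251) and the centrin gene CEN2 (-1.78 ± 0.264) were lower in shoots. ABCB4 in roots was at 137, 167 and 154 CPM at 11 days and 123, 137 and 151 CPM at 5 h, with overlap.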

How the data were processed

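Shoots and roots of WT and tpst seedlings were profiled by poly(A) RNA-seq. Per the study's methods and processing notes, the authors aligned 150-bp read pairs to TAIR10 with HISAT2 2.0.5, after fastp, and counted them per gene with featureCounts 1.5.0-p3. The strand setting is not given in the sources used here. The deposited values used are raw counts per gene (unit: count) for 32833 genes, with 21559655 to 36921510 counts per library over 36 libraries. The deposited FPKM table was not used.

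Low genes were dropped (filterByExpr, minimum 10). Then edgeR 4.0.16 (R 4.3.3, limma 3.58.1) ran its quasi-likelihood test, fitted to the 18 shoot libraries in 6 groups with TMM normalization, and the shoots minus roots difference to all 36. P-values were adjusted by Benjamini-Hochberg over all genes tested. SE is the absolute log2 fold change over the square root of F. CPM are TMM-normalized, and the floor used for BHLH101 covers counting error only.

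The libraries were taken by label, but this contrast and the gene lists were chosen with earlier results of these data known. Named genes are the 12 highest and 12 lowest protein-coding DEGs with non-overlapping groups and a mean of at least 5 CPM, the 10 of smallest p among them, up to 5 DEGs of smallest p per list, the PSK pathway, members of a list described for their level, and for shoots minus roots the 5 of smallest p in each direction. The MIR genes, ARPN as a microRNA target, UCC2, LAC3, LAC7, LAC13, COX5B-1 and the GTAC motif were chosen after values were seen. So were FIT, IREG2 and IRT1 as iron genes.

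Alternatives were RLE normalization, no filter, a filter of 50 counts, the replicate number as a block, nuclear genes only, the 6 libraries alone, DESeq2 1.42.0, no fold minimum and each library left out. Fits of root libraries alone and without the pair of root libraries numbered 3 were added after values were seen. Motifs were searched on both strands, and microRNA sites without gaps over 31342 genes. Python 3.11.15, pandas 2.3.3, numpy 2.4.6 and matplotlib 3.10.9 were used.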

Additional observations from a re-analysis of the deposited data

Results flagged for a closer look

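Results in which the difference between 11 days and 5 h of PSK itself differed between shoots and roots, by the edgeR test of shoots minus roots, were 116 genes higher and 128 genes lower in shoots. On the log2 scale the named genes higher in shoots were BHLH100 (4.82), AT1G13609 (3.72), BHLH38 (3.45), BHLH39 (3.33), AT1G47400 (2.58), AT1G47395 (2.53), AT2G30766 (2.37), PAP14 (AT5G53450, 1.96), 4CL3 (1.91), NUDT25 (1.88), NAS4 (1.74), CDI (1.5), CHI3 (1.49), GLCAT14C (1.32) and IPMI2 (1.03). Those lower in shoots were GSTU3 (-5.49), JRG21 (-4.08), FER1 (-3.59), AT5G55150 (-3.06), CSD2 (-2.73), PME17 (-2.44), CSD1 (-2.38), ABCB4 (-2.18), CEN2 (-1.78), AT5G40690 (-1.76), AT2G38823 (-1.67) and AT5G54100 (-1.23). Replicate 3 of 11 days and of 5 h in roots lay opposite to their mates in several of them. Without both, 19 of these 27 genes kept the call, and IPMI2 (0.96), 4CL3 (0.63), JRG21 (-4.35), CSD2 (-1.73), CSD1 (-1.19), AT5G55150 (-3.12), CHI3 (0.82) and NAS4 (0.81) lost it.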

How the results depend on the processing

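The 354 genes higher and 388 lower became 201 and 246 when the 6 libraries were fitted alone with edgeR, and 1998 and 1965 with no fold minimum. Leaving out 1 library gave 215 to 527 higher and 233 to 480 lower. The 116 and 128 genes of shoots minus roots became 178 and 212 with DESeq2 and 324 and 359 with no fold minimum, and 58 to 241 and 56 to 194 when 1 library was left out. In roots, DESeq2 on the 18 root libraries called 1 gene where edgeR called 0, and without the pair of root libraries numbered 3 edgeR called 157 higher and 80 lower and DESeq2 255 and 124. The replicate number as a block gave 390 higher and 407 lower in shoots, and 128 and 153 for shoots minus roots with a block per pair of shoot and root libraries. Same-numbered libraries of the compared groups deviated together with correlations of 0.286, 0.087 and 0.299, and each 11 day library correlated best with its own number, a hint of pairing from the data. As 1 of the correlations was under 0.1 and no label ties the numbers, the fit without the block was kept for 11 days against 5 h in shoots. That reason does not cover shoots minus roots, where both tissues came from the same seedlings. The 116 and 128 genes and their SE come from a fit that leaves this pairing out. Over 136 named results, 1789 of 1943 values under alternatives kept their direction and call, 151 lost the call, 3 gained it and none reversed, and 46 genes lost the call somewhere, most often when the 6 libraries were fitted alone or replicate 3 of 11 days was left out (27 genes each). Low counts limit MIR398C, FRO5 and BHLH101.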
